A study of Homo sapiens with 18 samples.

Results

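The Y RNA genes RNY1, RNY3, RNY4 and RNY5 are the 4 genes of the human Y RNA family that are known to make functional RNA. They were found by name on chromosome 7, as 4 of the 175935 rows of the count table, next to 867 further rows annotated as Y RNA. All 4 were read in each of the 18 small RNA libraries and all 4 passed the filter on low counts in every comparison. Together they held between 55.3% and 64.2% of the counts of all Y RNA rows of a library, with rows of identical counts taken once.

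The libraries came from HEK293T cells, an established human embryonic kidney line of epithelial type. The cells had been transfected with RNAiMAX for 48 hours with si-scramble (control) or with si-SSB (siSSB), which targets the mRNA of the RNA chaperone La. RNA was taken from whole cells (total) or from the nuclear (nuc) or cytoplasmic (cyto) part, which gives 6 groups of 3 replicates: control total, siSSB total, control nuc, siSSB nuc, control cyto and siSSB cyto. All 18 titles carry the term Plus_PNK, so that no group without it was at hand, and the mRNA of SSB was not analysed here. The study describes its genomic replicates as biological replicates handled on 1 day, while the labels do not say that they were separate cultures, so the p-values measure the spread between these libraries.

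Y RNAs are short RNAs made by RNA polymerase III (Pol III), which fold back on themselves so that the 5′ and 3′ ends form a long stem below an internal loop. Ro60, a protein of RNA quality control, binds a conserved part of the lower stem, and La binds the run of U at the 3′ end that Pol III leaves on its transcripts. Y RNAs are exported from the nucleus after they are made and are best known in the cytoplasm, bound to Ro60, and for a part in the start of DNA replication.

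The sequences of RNY1, RNY4 and RNY5 show both binding sites, and they are given here because the tail is where La, the protein targeted by the siRNA, is known to bind. They were read from the GRCh38 genome at the RefSeq gene positions, 5′ to 3′ on the strand of the gene and as DNA. Capitals mark the letters GGTCCGA of the 5′ strand of the lower stem, the letters TTGACT of its 3′ strand, and the closing run of T.
RNY1, chr7:148987136-148987248, minus strand: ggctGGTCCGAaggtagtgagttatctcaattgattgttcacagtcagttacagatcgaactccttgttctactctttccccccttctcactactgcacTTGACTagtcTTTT
RNY4, chr7:148963315-148963410, plus strand: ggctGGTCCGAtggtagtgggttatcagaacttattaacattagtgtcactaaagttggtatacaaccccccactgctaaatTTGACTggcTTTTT
RNY5, chr7:148941488-148941571, plus strand: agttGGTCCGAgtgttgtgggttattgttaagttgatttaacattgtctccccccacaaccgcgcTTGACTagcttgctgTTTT

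GGTCCGA began at base 5 in all 3 sequences, and the closing T run was 5 bases long in RNY4 and 4 bases long in RNY1 and RNY5. Of the 867 further Y RNA rows, 7.73% held GGTCCGA on the strand of the row, 61% held TTGACT and 4.73% held both. The genes were 113, 102, 96 and 84 nt long in the order RNY1, RNY3, RNY4 and RNY5. Of the 3, RNY1 and RNY4 were the most alike pair, with 64.7% identical columns in a global alignment, and RNY1 and RNY5 the least alike, with 57.8%. No other Y RNA row held a sequence within 2 edits of any of the 4.

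The genes lie within 1 stretch between the protein-coding genes EZH2 and PDIA4, outside the annotated exons of both. RNY5 overlaps the lncRNA gene ENSG00000286171, and the other 3 overlap no other gene of the GENCODE annotation. Among the rows of the deposited table, the lncRNA lnc-CUL1-5 overlaps RNY4 and RNY5. RNY1, RNY4 and RNY5 each had TATA-like letters in the upstream sequence, as is known for the Pol III promoters that lie wholly outside the transcribed part. The 60 bases before each of these starts are shown with those letters in capitals. Several TATA-like words were looked for, and the word marked is one that the gene itself held.
RNY1, chr7:148987249-148987308, minus strand: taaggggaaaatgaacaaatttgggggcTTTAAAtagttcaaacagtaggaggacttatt
RNY4, chr7:148963255-148963314, plus strand: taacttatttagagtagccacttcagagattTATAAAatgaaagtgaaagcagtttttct
RNY5, chr7:148941428-148941487, plus strand: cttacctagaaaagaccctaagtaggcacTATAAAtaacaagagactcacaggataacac

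The capitals began 32, 29 and 31 nt before the start in the order RNY1, RNY4 and RNY5. Between 40 and 16 nt before the start, 2.30% of 35116 RefSeq promoters held TATAAA on the strand of the gene and 1.48% held TTTAAA. These words can overlap each other, and a promoter was counted under each that it held. The share of promoters that held any of the words looked for was not counted.

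A row of the table spans the gene with about 25 nt on each side, and reads in overlapping rows were counted in each of them. The row of lnc-CUL1-5 is 22056 nt long. Its counts exceeded the sum of those genes by 0 to 8 counts per library, or 48 of 1243146 counts over the 18 libraries. ENSG00000286171.1 exceeded RNY5 by 0 to 3 counts per library. Counts listed for these lncRNAs were therefore the reads of RNY4 and RNY5 almost in full, and the lncRNAs were not taken as separate RNAs.

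Column sums, which are not numbers of reads because rows overlap, lay between 21565995 and 158244813, and the sum over annotated small RNA rows, with rows of identical counts taken once, between 2375990 and 7675990 (called the small RNA sum). The HEK293T microRNA list was read in full (7 of 7, at least 16 counts each), and 4 of 6 listed microRNAs of other cell types (blood, neurons and muscle) that had a row summed to 0 or 1 counts per library. Of 23 RNAs listed for the cytoplasm, 22 had a lower percent of the small RNA sum in every nuc library than in any cyto library, RN7SL1 being the exception. Of 7 listed for the nucleus, SNORD13 and SNORD118 were higher in nuc without overlap, SNORD3A overlapped, and SCARNA2, MALAT1, NEAT1 and RN7SK were lower in nuc, so that this list did not separate the fractions. The part of this in the results on fractions was not tested.

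The 4 genes were read deeply, with 250 to 152414 counts per gene and library. Their sum was 2.0% to 2.7% of the small RNA sum in total RNA, 5.9% to 7.7% in cyto and 0.056% to 0.139% in nuc. No gene was near 0 in any library. No molecular identifiers were described, so that reads are not independent molecules.

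Levels over the 6 groups were compared as CPM, that is counts brought to a common library size, with trimmed mean of M-values (TMM) factors of all 18 libraries, which set the bulk of rows equal between libraries. RNY1, known for its part in the start of DNA replication in cell extracts, was at 705 ± 110 CPM in control cyto, 654 ± 116 in siSSB cyto, 545 ± 71 in control total, 428 ± 85 in siSSB total, 39.9 ± 17.2 in control nuc and 24.3 ± 7.7 in siSSB nuc (mean ± SD, n = 3 in each group). RNY4, whose fragments are known from blood and vesicles, stood in the same order, at 865 ± 271, 842 ± 107, 791 ± 102, 651 ± 229, 77.2 ± 25.6 and 43.7 ± 17.1 CPM. Both were thus highest in cyto and lowest in siSSB nuc, and the cyto and total neighbours in this order overlapped. CPM gives a part of the library and not an amount per cell. In bulk RNA, fewer cells that hold an RNA and less of it per cell cannot be told apart.

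RNY3, known for a part in histone pre-mRNA processing, was at 93.5 ± 45.7 CPM in control total, 70.6 ± 7.1 in siSSB cyto, 69.4 ± 19.0 in control cyto, 50.7 ± 17.9 in siSSB total, 21.1 ± 5.3 in control nuc and 8.97 ± 2.39 in siSSB nuc (mean ± SD, n = 3 in each group). RNY5, known to be found with ribosomal protein L5 and 5S rRNA, again stood in that order, at 455 ± 86, 340 ± 72, 339 ± 155, 337 ± 156, 88.3 ± 36.6 and 39.99 ± 15.20 CPM. In every gene the 4 cyto and total groups overlapped with their neighbours in the order, and both nuc groups lay below all of them. With library size alone or as a percent of the small RNA sum, siSSB cyto was highest and control cyto next for all 4 genes, and the cyto and total groups no longer overlapped.

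**Figure D1:**
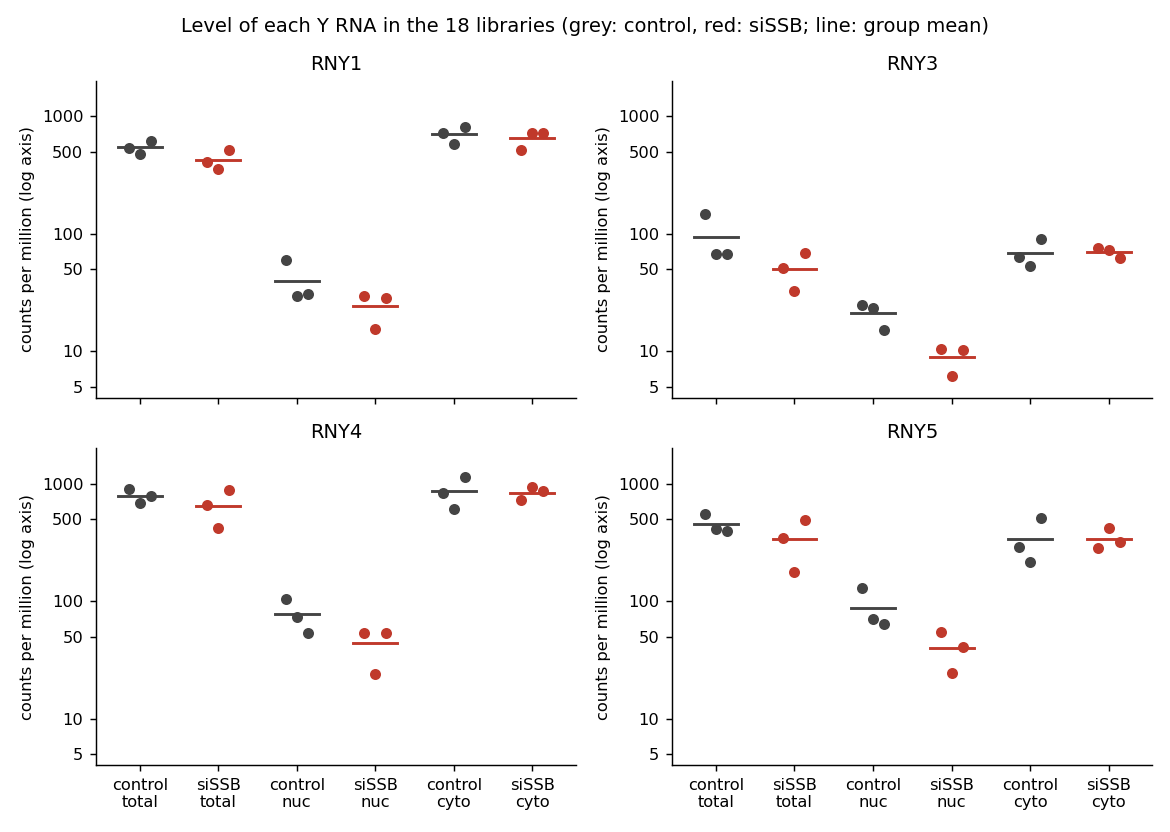
CPM (log axis, TMM factors of all 18 libraries) of RNY1, RNY3, RNY4 and RNY5 in the 6 groups; each point is a library, grey for control and red for siSSB, and the line is the group mean. The nuc libraries lie below all total and cyto libraries in each panel, by less in RNY3 and RNY5 than in RNY1 and RNY4.

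Levels between the genes were compared within a library per length, as counts per 100 nt of annotated gene. RNY3 was the lowest of the 4 in all 18 libraries. RNY4 exceeded RNY1 in all 18 libraries, by 1.22 to 2.96 times per length. RNY5 changed its place: in the 6 cyto libraries the order was RNY4, RNY1, RNY5 and RNY3, while RNY5 exceeded RNY1 in all 6 nuc libraries and exceeded RNY4 in 5 of them. In total RNA, RNY1 stood above RNY5 in 1 of 3 libraries of either siRNA. Without division by length, RNY1 also stood above RNY5 in control total replicate 2 (29048 against 25223 counts). It then did so in siSSB total replicates 1 and 3 as well. RNY5 was then below RNY4 in control nuc replicate 2 (2003 against 2104 counts). Whether the reads of these libraries grow with gene length was not tested.

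The first comparison asked where in the cell the 4 RNAs lay. All 4 were lower in nuc than in cyto, in control and in siSSB cells, and RNY1 and RNY4 were lower by far more than RNY3 and RNY5. In the control fit RNY1 had 37.1 ± 15.5 CPM in nuc and 601 ± 58 CPM in cyto, and RNY4 had 71.7 ± 22.6 and 733 ± 191 CPM. RNY3 had 19.6 ± 4.5 CPM in nuc and 58.9 ± 13.2 CPM in cyto, and RNY5 had 82.1 ± 32.9 and 286 ± 117 CPM (mean ± SD, n = 3 in each group). No nuc library of any of the 4 genes reached the lowest cyto library.

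In control cells the log2 fold change of nuc over cyto was -4.01 ± 0.34 for RNY1 and -3.35 ± 0.33 for RNY4 (± standard error, SE), with edgeR adjusted p-values of 3.69e-11 and 9.86e-10. It was -1.80 ± 0.33 for RNY5 and -1.59 ± 0.30 for RNY3, with edgeR adjusted p-values of 6.94e-05 and 9.36e-05. All 4 genes passed an adjusted p under 0.05, where 23.3% of all rows tested passed in either direction and 14.1% passed as lower in nuc. The CPM ranges of all 4 did not overlap, as for 41.8% of all rows. The median over the 4 was -2.58, against -0.27 over all rows.

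In siSSB cells RNY1 was lower in nuc by -4.63 ± 0.35 on the log2 scale and RNY4 by -4.15 ± 0.35, with edgeR adjusted p-values of 3.39e-11 and 3.68e-10. RNY5 was lower by -2.96 ± 0.33 and RNY3 by -2.86 ± 0.32, with edgeR adjusted p-values of 5.84e-08 and 6.23e-08. Again all 4 passed, where 25.3% of all rows passed in either direction and 14.5% as lower in nuc, and all 4 ranges lay apart, as for 42.5% of all rows. The median over the 4 was -3.56 (all rows, -0.19).

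How much lower the nuc level appeared depended on the scaling between libraries. Under 6 scalings the median of all rows ran from -6.11 to -0.27 in control cells and from -5.99 to -0.19 in siSSB cells, and the genes moved with it. Relative to that median RNY1 stayed within -3.89 to -3.69 in control cells, RNY4 within -3.19 to -3.07, RNY5 within -1.60 to -1.52 and RNY3 within -1.43 to -1.31. The order of the 4 genes was the same under each. The yield of a fraction and its RNA content cannot be told apart in these libraries.

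**Figure D2:**
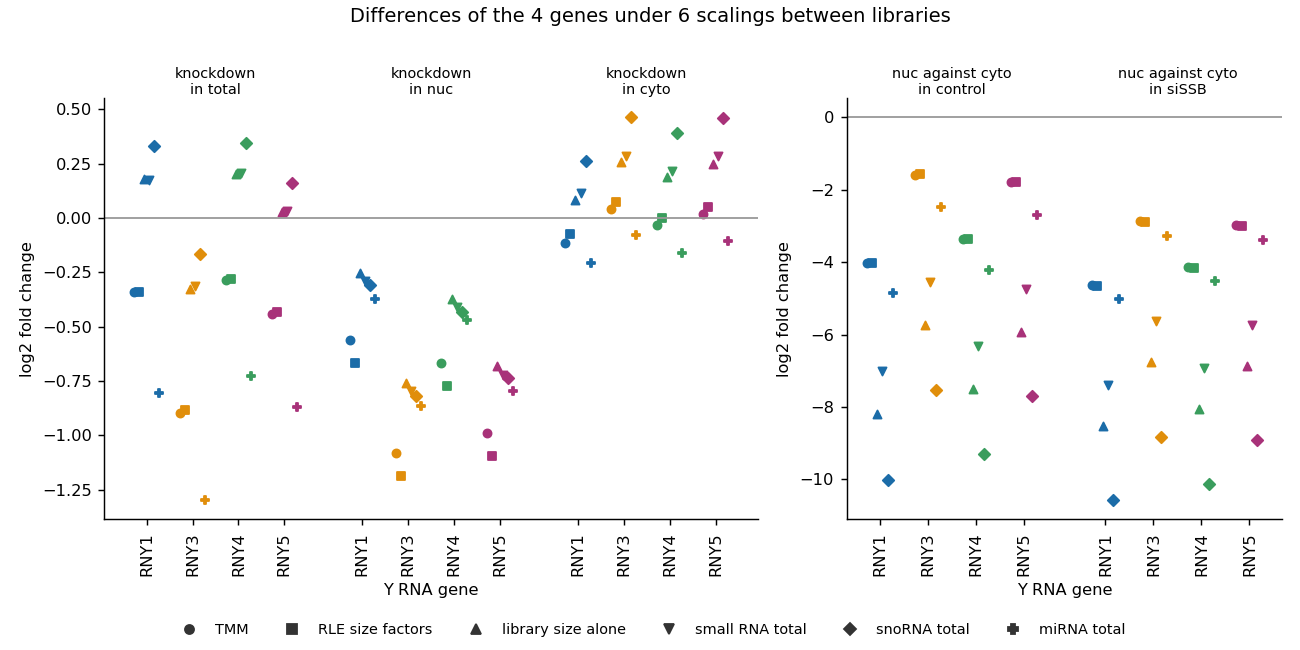
Log2 fold change of the 4 genes in the 3 knockdown comparisons (left, siSSB over control) and the 2 fraction comparisons (right, nuc over cyto); marker shapes stand for the 6 scalings and colours for the genes. In the fractions all values lie below 0 and shift together, while in total and cyto RNA the knockdown values of RNY1, RNY4 and RNY5 lie on both sides of 0.

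The make-up of the 4-gene count does not depend on the scaling, since every share is taken within a library. RNY1 held 37.7%, 40.2% and 31.5% of the 4-gene count in control cyto replicates 1, 2 and 3, and 18.7%, 14.9% and 18.8% in control nuc. RNY5 held 15.1%, 14.7% and 20.03% in control cyto and 40.8%, 35.7% and 39.3% in control nuc. The 4-gene count was thus made up mostly of RNY4 and RNY1 in cyto, and of RNY5 and RNY4 in nuc. Neither RNY1 nor RNY5 overlapped between the fractions.

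RNY4 fell from 43.9%, 41.5% and 44.9% in control cyto to 32.7%, 37.5% and 32.7% in control nuc. RNY3, the rarest of the 4, went from 3.33%, 3.68% and 3.54% to 7.81%, 11.8% and 9.22%. The siSSB libraries had the same pattern without overlap: RNY1 was at 32.5% to 36.4% in cyto and 19.8% to 22.0% in nuc, RNY3 at 3.18% to 4.75% and 7.03% to 8.87%, RNY4 at 43.3% to 45.1% and 34.3% to 40.4%, and RNY5 at 16.1% to 19.6% and 30.7% to 37.0%.

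Averaged over control and siSSB cells, the nuc share differed from the cyto share by -16.1 percentage points for RNY1, by -8.22 for RNY4, by 5.10 for RNY3 and by 19.2 for RNY5. Each had p = 0.005 in an exact two-sided permutation test of fraction labels within control and siSSB cells, which is the smallest p that its 400 label sets can give. All 6 nuc libraries lay on the named side for each gene. As shares of all Y RNA rows in place of the 4 genes, the differences were smaller, at -8.70 for RNY1, -3.65 for RNY4, 3.23 for RNY3 and 12.3 for RNY5, with the same exact permutation p of 0.005. The 4 shares of a library sum to 100%, so that these 4 tests are linked.

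**Figure D3:**
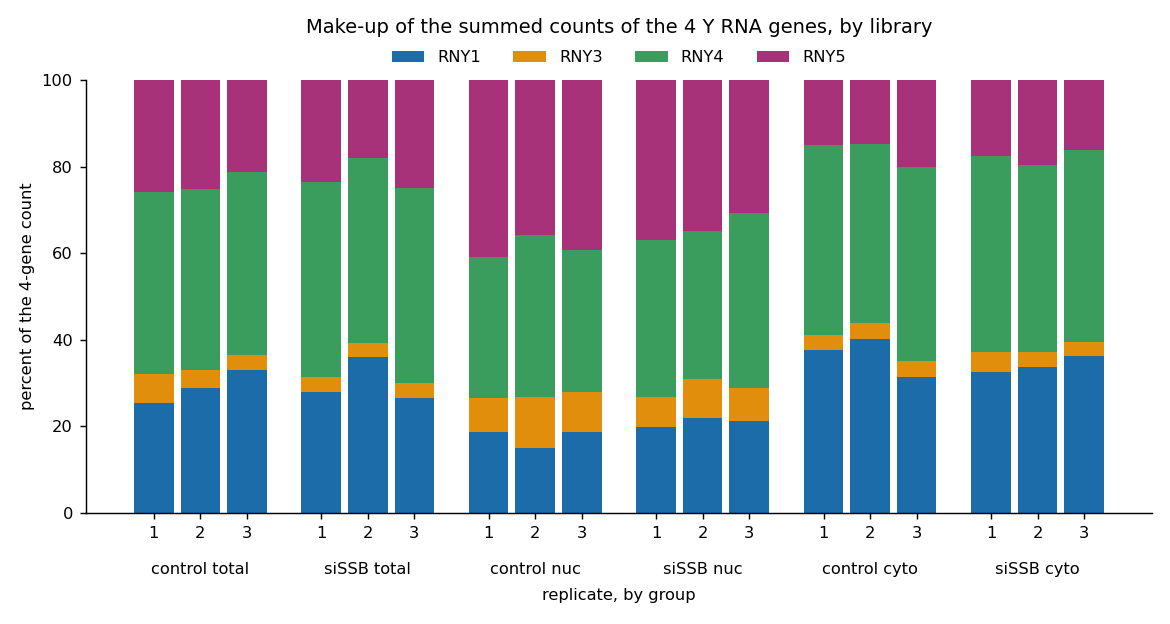
Stacked bars give the percent of the summed counts of the 4 genes held by each gene (vertical axis, 0 to 100%) in each of the 18 libraries, by group and replicate. RNY1 takes 31.5% to 40.2% of the bar in cyto and 14.9% to 22.0% in nuc, and RNY5 takes 14.7% to 20.03% in cyto and 30.7% to 40.8% in nuc.

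The second question was whether the 4 RNAs depended on La. In total RNA all 4 had lower means in siSSB than in control libraries, and none passed the test. RNY3 had 148, 65.4 and 64.3 CPM in control total replicates 1, 2 and 3 and 53.4, 33.2 and 62.4 CPM in siSSB total. All siSSB libraries thus lay below all control libraries for RNY3 in this fit, by a narrow gap, and control replicate 1 stood well above the rest. With the TMM factors of all 18 libraries the groups overlapped for RNY3. There siSSB total replicate 3 was at 68.1 CPM, and control total replicates 2 and 3 were at 67.5 and 66.7 CPM.

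RNY5 had 559, 400 and 383 CPM in control total and 357, 182 and 448 CPM in siSSB total. RNY1 had 547, 461 and 595 CPM in control and 425, 363 and 477 CPM in siSSB. RNY4 had 904, 670 and 758 CPM in control and 681, 429 and 803 CPM in siSSB. These 3 genes overlapped between the groups, and siSSB replicate 2 was the lowest of the 6 libraries in all 4 genes. Its TMM factor was 1.75, against 0.64 to 1.07 in the other libraries. As a percent of the small RNA sum, siSSB replicate 2 was the lowest for RNY3 and RNY5 but the highest for RNY1, at 0.931%.

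The log2 fold change of siSSB over control in total RNA was -0.90 ± 0.39 for RNY3 (SE; 95% interval -1.74 to -0.05; edgeR adjusted p = 0.272). It was -0.44 ± 0.39 for RNY5, -0.34 ± 0.33 for RNY1 and -0.29 ± 0.36 for RNY4, with edgeR adjusted p-values of 0.641, 0.665 and 0.763. Thus 0 of the 4 passed an adjusted p under 0.05, where 1.34% of all rows tested did, and 1 of 4 had CPM ranges that did not overlap, where 19.7% of all rows had. Before adjustment RNY3 alone was under 0.05 in edgeR, at 0.0387, where 16.6% of all rows were, and DESeq2 called 0 of the 4. The median over the 4 was -0.39, against -0.01 over all rows.

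For RNY3 the value rested in part on control total replicate 1, and was -0.39 without it. Without siSSB total replicate 2 it was -0.55, while RNY5 was at -0.04 and RNY4 at 0.04. RNY1, RNY4 and RNY5 were above 0 when scaled by library size alone, by snoRNA counts or by the small RNA sum. With the miRNA total as scale RNY3 passed, where 12.8% of all rows did. The median of all rows itself ran from -0.51 to 0.72 over the 6 scalings, lowest with the miRNA total. Relative to that median all 4 genes lay below 0 under each scaling, RNY3 at -0.88 to -0.79, RNY5 at -0.56 to -0.36, RNY1 at -0.39 to -0.30 and RNY4 at -0.37 to -0.22.

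In nuc RNA all 4 again had lower means in siSSB than in control libraries, RNY3 and RNY5 by the most, and none passed the test. RNY3 had 5.92, 5.76 and 3.92 CPM in control nuc replicates 1, 2 and 3 and 2.77, 1.81 and 2.81 CPM in siSSB nuc, which is 832, 663 and 408 counts against 351, 250 and 308. RNY5 had 31.0, 17.4 and 16.7 CPM in control and 14.6, 7.11 and 11.1 CPM in siSSB. For both genes every siSSB library lay below every control library.

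RNY4 had 24.8, 18.3 and 13.9 CPM in control nuc and 14.2, 6.99 and 14.6 CPM in siSSB nuc. RNY1 had 14.2, 7.28 and 7.98 CPM in control and 7.80, 4.49 and 7.69 CPM in siSSB. Both overlapped between the groups in this fit. With the TMM factors of all 18 libraries RNY1 did not, by a narrow gap (lowest control nuc 29.40 CPM, highest siSSB nuc 29.32 CPM). Control replicate 1 was the highest and siSSB replicate 2 the lowest library in all 4 genes. The TMM factor of siSSB replicate 2 was the largest in this fit, at 1.40. As a percent of the small RNA sum, siSSB replicate 2 was still the lowest in all 4 genes. With library size alone, the lowest RNY1 value was 6.25 CPM in control nuc and 6.27 CPM in siSSB nuc.

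The log2 fold change in nuc was -1.08 ± 0.30 for RNY3 (SE; 95% interval -1.71 to -0.45; edgeR adjusted p = 0.170) and -0.99 ± 0.33 for RNY5 (95% interval -1.69 to -0.28; edgeR adjusted p = 0.234). It was -0.67 ± 0.33 for RNY4 and -0.56 ± 0.33 for RNY1, with edgeR adjusted p-values of 0.385 and 0.430. Thus 0 of the 4 passed, where 0.378% of all rows did, and 2 of 4 had ranges apart, where 22.3% of all rows had. Unadjusted edgeR p-values were 0.00229 for RNY3 and 0.00895 for RNY5, so that 2 of the 4 were under 0.05 before adjustment, where 14% of all rows were. The median over the 4 was -0.83, against 0.08 over all rows.

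The call in nuc depended on the test. With DESeq2 RNY3 passed, at -1.19 and an adjusted p of 0.0215. With no filter on rows beyond 1 count in all, RNY3 and RNY5 both passed in edgeR, with adjusted p-values of 0.0264 and 0.0396. In the first of these fits 0.803% of the rows to which DESeq2 gave an adjusted p passed (37 of 4605), where edgeR had tested 6873 rows. In the second 0.0721% of all rows passed (67 of 92966). All 4 genes were below 0 under all 6 scalings, and relative to the median of all rows RNY3 stood at -1.19 to -1.16, RNY5 at -1.13 to -1.07, RNY4 at -0.80 to -0.75 and RNY1 at -0.70 to -0.64. Without siSSB nuc replicate 2 RNY1 was at -0.33 and RNY4 at -0.38, and without control nuc replicate 1 RNY1 was at -0.24.

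In cyto RNA no gene passed the test, and the differences were near 0 with wide intervals. RNY1 had 2684, 2518 and 2952 CPM in control cyto and 2232, 2670 and 2624 CPM in siSSB cyto. RNY3 had 237, 231 and 332 CPM in control and 326, 268 and 230 CPM in siSSB. The groups overlapped, and high and low values fell in both.

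RNY4 had 3127, 2599 and 4207 CPM in control cyto and 3097, 3418 and 3198 CPM in siSSB cyto. RNY5 had 1075, 920 and 1876 CPM in control and 1210, 1545 and 1165 CPM in siSSB. Control replicate 3 was the highest of the 6 libraries in all 4 genes. Its TMM factor was 0.81, against 0.97 to 1.13 in the other libraries. As a percent of the small RNA sum, control replicate 3 was the highest for none of the 4 genes, and the lowest for RNY1, at 2.16%.

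The log2 fold changes in cyto were -0.12 ± 0.24 for RNY1, 0.04 ± 0.27 for RNY3, -0.03 ± 0.26 for RNY4 and 0.02 ± 0.31 for RNY5 (SE), with edgeR adjusted p-values of 0.984, 0.994, 0.994 and 0.994. Their 95% intervals reached from -0.65 to 0.41, from -0.55 to 0.64, from -0.62 to 0.56 and from -0.68 to 0.72. Of the 4 genes 0 passed, by edgeR or by DESeq2 and also at an unadjusted p under 0.05, where 0.291% of all rows passed after adjustment and 6.66% before it. Likewise 0 of 4 had ranges apart, where 13.5% of all rows had. The direction of each gene changed with the scaling between libraries.

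Whether the knockdown difference was larger in nuc than in cyto was tested as an interaction over the 12 fraction libraries. The nuc minus cyto difference of log2 fold changes was -1.25 ± 0.43 for RNY3, -1.15 ± 0.46 for RNY5, -0.78 ± 0.43 for RNY4 and -0.60 ± 0.43 for RNY1 (SE). None passed, with edgeR adjusted p-values of 0.958 for the first 3 and 0.962 for RNY1. Only 0.0133% of all rows passed in this fit. Before adjustment the edgeR p was 0.00531 for RNY3 and 0.0156 for RNY5, and 4.9% of all rows were under 0.05. All 4 values were below 0 under all 6 scalings, though with the miRNA total, which moved the median of all rows to 0.51, they were -0.79 for RNY3, -0.69 for RNY5, -0.31 for RNY4 and -0.17 for RNY1. With library size alone RNY1 was at -0.34. Without control nuc replicate 1 RNY1 was at -0.21 and RNY4 at -0.52, and without siSSB nuc replicate 2 they were at -0.35 and -0.48.

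The make-up of the 4-gene count was also compared between siSSB and control. RNY4 held 41.9%, 42.0% and 42.1% in control total and 44.9%, 42.6% and 44.9% in siSSB total, without overlap. RNY3 held 6.84%, 4.10% and 3.57% in control total and 3.53%, 3.29% and 3.49% in siSSB total, again without overlap though by a narrow gap. In nuc RNY1 was at 14.9% to 18.8% in control and 19.8% to 22.0% in siSSB, without overlap. RNY5 in nuc was at 35.7% to 40.8% in control and 30.7% to 37.0% in siSSB, with overlap. In every other pair of gene and RNA type the share ranges overlapped as well.

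Over the 3 RNA types the siSSB share minus the control share was 1.86 percentage points for RNY4, -0.96 for RNY3, -1.71 for RNY5 and 0.82 for RNY1. The RNA types did not all go the same way: in cyto the difference was -2.24 for RNY1, 0.26 for RNY3 and 1.18 for RNY5, against 1.16, -1.40 and -1.87 in total and 3.53, -1.74 and -4.45 in nuc. RNY4 was at 0.81 in cyto, 2.12 in total and 2.65 in nuc. An exact two-sided permutation test of siRNA labels within RNA types of the pooled differences gave p = 0.055, 0.133, 0.237 and 0.618 for RNY4, RNY3, RNY5 and RNY1, with 0.00025 as the smallest p that its 8000 label sets can give. No share passed 0.05. RNY3 lay below the control mean of its RNA type in 8 of 9 siSSB libraries and RNY4 above it in 8 of 9. The 8 for RNY4 include siSSB nuc replicate 2, which at 34.28% was level with the control nuc mean of 34.28%. As shares of all Y RNA rows the pooled differences were 0.42 for RNY4, -0.66 for RNY3, -1.46 for RNY5 and 0.022 for RNY1.

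Other short Pol III RNAs were read in the same fits, from a list of 9 that holds RN7SK, RMRP, RPPH1, BCYRN1, RNU6ATAC and the 4 vault RNAs. In total RNA 6 of the 9 were tested and 3 fell, the vault RNAs VTRNA1-1, VTRNA1-2 and VTRNA1-3, which are the RNA parts of the vault particle. The log2 fold change was -2.58 ± 0.38 for VTRNA1-2, -2.25 ± 0.34 for VTRNA1-1 and -1.67 ± 0.37 for VTRNA1-3, with edgeR adjusted p-values of 0.0122, 0.0128 and 0.0491. VTRNA1-3 had at most 82 counts in a total library, against 35523 for VTRNA1-2 and 2661 for VTRNA1-1. RN7SK, an inhibitor of a transcription elongation factor, was at -0.02 ± 0.28, and RMRP and RPPH1, the RNA parts of RNases MRP and P, were at 0.12 ± 0.28 and -0.08 ± 0.24. The median of the list was -0.88 in total RNA, against -0.01 over all rows, and 1.34% of all rows passed. This median lay between the vault RNAs on one side and RN7SK, RMRP and RPPH1 on the other.

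In nuc 2 of 6 tested fell, and in cyto 2 of 6, VTRNA1-1 and VTRNA1-2 in both cases, with list medians of -0.76 and -0.86. Of all rows 0.378% passed in nuc and 0.291% in cyto, with medians of 0.08 and 0.01. The copy of snaR-A with the highest mean count, SNAR-A14, fell by 2.53 ± 0.47 in total RNA and by 2.28 ± 0.37 in nuc, with edgeR adjusted p-values of 0.0288 and 0.00585. In cyto it was at -1.02 ± 0.46 and did not pass, with an edgeR adjusted p of 0.752. The U6 copy RNU6-1 did not pass, at -0.60 ± 0.28 in total, -0.56 ± 0.31 in nuc and -0.08 ± 0.24 in cyto. The 4 Y RNAs thus had values nearer to 0 than the called vault RNAs in all 3 RNA types, and no test of that difference was made.

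**Figure D4:**
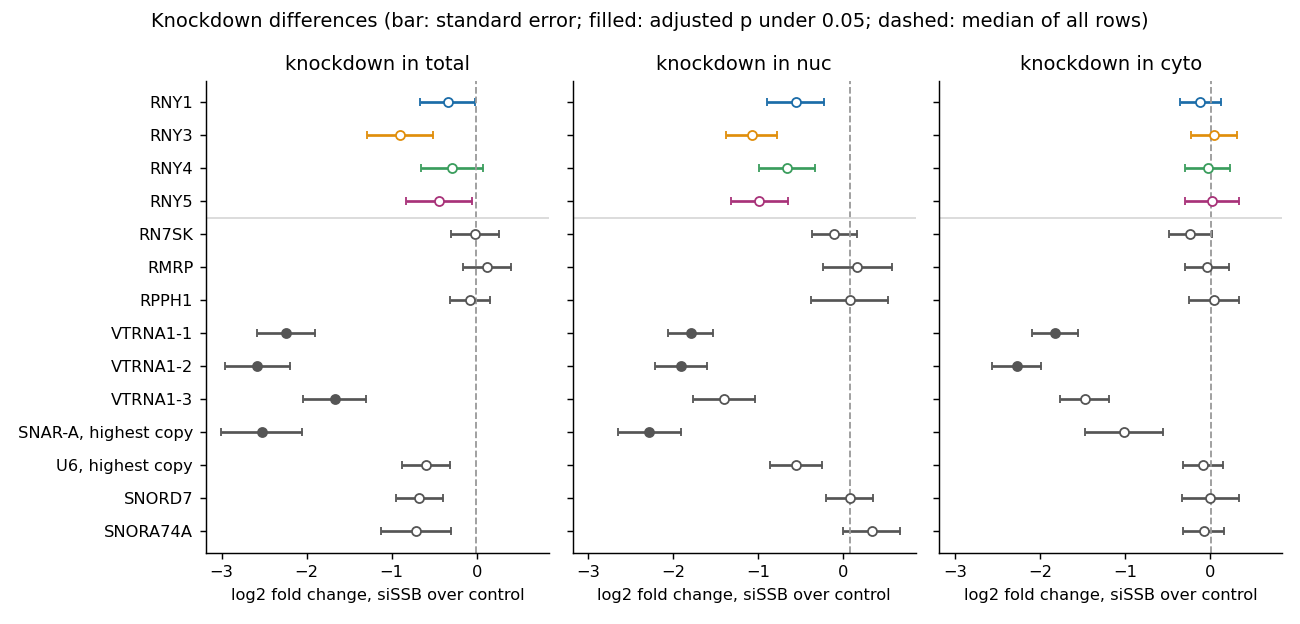
Log2 fold change of siSSB over control (horizontal axis; bars are ± 1 SE) for the 4 Y RNA genes (coloured, top) and other short RNAs (grey) in total, nuc and cyto RNA; filled points passed an edgeR adjusted p under 0.05 and the dashed line is the median of all rows. The Y RNA points are open in each panel, at -0.90 to -0.29 in total, -1.08 to -0.56 in nuc and -0.12 to 0.04 in cyto.

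Between the fractions the same list was mixed. In control cells 8 of the 9 were tested, RMRP and RPPH1 rose in nuc and RN7SK, VTRNA1-1, VTRNA1-2 and VTRNA2-1 fell, with a list median of -0.53. VTRNA2-1 was near the floor, with at most 28 counts in any library of that fit, and RNU6ATAC, which enters the median, had at most 8. Of all rows 23.3% passed in that fit, with a median of -0.27. RMRP was higher in nuc by 2.06 ± 0.34 and VTRNA1-2 lower by -2.87 ± 0.33 on the log2 scale, with edgeR adjusted p-values of 1.39e-05 and 2.01e-08. In siSSB cells 7 were tested, 2 rose and 3 fell, with a list median of 0.05. There 25.3% of all rows passed, with a median of -0.19. In the interaction fit 0 of 9 passed, where 0.0133% of all rows did. Of these 9, VTRNA2-1, BCYRN1 and RNU6ATAC had at most 28, 9 and 8 counts in any library of that fit. At such counts their tests could hardly show a difference.

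Over the 18 libraries the 4 genes followed each other closely, and all were low in nuc. Pearson's r of log2 CPM was highest between RNY1 and RNY4 (0.993), then between RNY3 and RNY5 (0.973), and lowest between RNY1 and RNY3 (0.932). Among 801 other rows of at most 500 nt, the row most like RNY1 was a tRNA, tRNA-Gly-GCC-1-3 (chr21:17454764-17454884, r = 0.995), which was also the most like RNY4 (r = 0.989). The row most like RNY3 was tRNA-Gly-TCC-1-3 (r = 0.975), and for RNY5 it was the row of tRNA-Glu-CTC-2-1 and its copy (r = 0.968). All rows share the library, its depth and its fraction, so these values are descriptions.

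The next in rank were AC051619.8 (r = 0.991) and tRNA-Leu-CAA-4-1 (r = 0.990) for RNY1, tRNA-Ala-AGC-6-1 (r = 0.967) and the tRNA-Glu-CTC-2-1 row (r = 0.965) for RNY3, tRNA-Arg-TCT-3-1 (r = 0.986) and tRNA-Leu-CAA-4-1 (r = 0.984) for RNY4, and tRNA-Lys-TTT-1-2 (r = 0.968) and lnc-MDM4-11 (r = 0.967) for RNY5. The last of these overlaps tRNA-Lys-TTT-1-2 and shares its reads. All but AC051619.8 and lnc-MDM4-11 were annotated as tRNA genes.

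For RNY4 and RNY3 the reads could not be tied to the gene in full. A Y RNA row on chromosome 3 shares bases 1 to 34 of RNY4 and held 43.9% to 57.3% as many counts as RNY4 in total and cyto, and 24.6% to 41.8% in nuc. A row on chromosome 2 shares bases 1 to 32 and held 41.5% to 54.7% in total and cyto, and 22.3% to 40.8% in nuc. A row on chromosome 8 shares bases 22 to 95 and held 3.76% to 9.24% in total and cyto, and 10.0% to 14.7% in nuc. A row on chromosome 4 shares bases 1 to 17 and held 5.42% to 7.90% in total and cyto, and 2.52% to 6.17% in nuc. The ratios of the rows on chromosomes 3 and 2 were thus lower in every nuc library than in any cyto or total library, that of the row on chromosome 4 overlapped, and that of the row on chromosome 8, which matches the middle and 3′ end, was higher. How reads with several positions were placed is not given in the sources used here, so that reads of RNY4 and of these copies cannot be told apart.

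RNY3 shared a run of 20 bases or more with 318 of the 867 further Y RNA rows. The most read of these, on chromosome X, was 10 edits away and shared a run of 70 bases, and it held 49.8% to 66.9% as many counts as RNY3 in total and cyto and 35.8% to 53.6% in nuc. A row on chromosome 12 was 3 edits away with a shared run of 92 bases and held 12.6% to 22.7% in total and cyto and 22.2% to 33.8% in nuc. The part of these copies in the values of RNY3 was not tested, and its reads and theirs cannot be told apart. The most read row that shared such a run with RNY1 held at most 1.21% as many counts as RNY1, and that for RNY5 at most 0.762%.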

How the data were processed

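The authors deposited 1 table of raw counts per noncoding RNA feature (RNAcentral) for 18 small RNA libraries, without normalization, and the submitters' processing notes name Bowtie2, bedtools and hg38 without versions. The trimming, the placing of reads with several positions and the use of strand are not given in the sources used here. Groups and replicate numbers came from the titles. Counts were tested as deposited with edgeR 4.0.16 in R 4.3.3 (quasi-likelihood F-test, TMM factors, filterByExpr, library sizes from column sums), each pair of groups on its own 6 libraries and the interaction on 12. P-values were Benjamini-Hochberg adjusted over all rows tested, with 0.05 as threshold. SEs were taken from the F statistic. DESeq2 1.42.0, other scalings and filters, a replicate block and leaving out libraries were alternatives. Shares of the 4-gene count were tested by exact permutation in Python 3.11.15. The fits were tested on simulated data. Sequences were read from the hg38 genome at RefSeq positions, and promoters came from RefSeq. The sequence of RNY3 is not reported here. The genes and lists were chosen with earlier results of these data known. Named are the 4 genes, listed Pol III RNAs, and per gene the 3 rows of highest Pearson correlation among rows of at most 500 nt with a mean of at least 50 counts. The rows that match RNY3 and RNY4 were named after their counts were seen.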

Additional observations from a re-analysis of the deposited data

How the results depend on the processing

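All 4 genes passed in both nuc against cyto comparisons under each of 16 alternatives, and none passed in the interaction under any of 22. In knockdown in total 1 gene (RNY3) passed with the miRNA total as scale, as did 12.8% of all rows. In nuc 1 passed with DESeq2 (RNY3) and 2 (RNY3, RNY5) without the low-count filter. Log2 fold changes in total turned to 0.18, 0.20 and 0.026 (RNY1, RNY4, RNY5) with library size alone, 0.33, 0.34 and 0.16 with the snoRNA total, and 0.18, 0.21 and 0.033 with the small RNA total. In cyto RNY1 and RNY4 turned to 0.084 and 0.19, 0.26 and 0.39, and 0.12 and 0.22 under these scales. RNY4 in cyto turned to 0.00081 with RLE factors and with DESeq2, and RNY3 and RNY5 to -0.078 and -0.11 with the miRNA total. With 1 library left out RNY4 in total ranged from -0.50 to 0.039, and in cyto RNY1 ranged from -0.18 to 0.0056, RNY3 from -0.10 to 0.28, RNY4 from -0.19 to 0.23 and RNY5 from -0.19 to 0.45. The cause of these turns was not tested beyond the shift of the median of all rows.

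With 1 replicate number left out, the knockdown share differences ranged from -0.085 to 1.46 percentage points for RNY1 and from -1.12 to -0.77 for RNY3, which passed without replicate 1. Nuc against cyto shares ranged from -17.2 to -14.9 (RNY1), 4.25 to 5.97 (RNY3), -9.10 to -7.28 (RNY4) and 17.6 to 20.4 (RNY5), and could not pass, since 2 libraries against 2 in 2 strata allow no p under 0.0556. For RNY3, 1 pair of neighbours in the order of levels overlapped with library size alone or as a percent of the small RNA sum, against 3 with TMM.

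Same-numbered libraries correlated between -0.42 and 0.13 in their deviations from the group means. With 3 libraries per mean these values cannot show whether same-numbered libraries were paired. With a replicate block 0, 0 and 0 genes passed in knockdown in total, nuc and cyto, 4 and 4 in the fractions and 0 in the interaction. The block gave 199, 40 and 4 rows called in the knockdown comparisons, against 186, 26 and 55. The 4 genes had at least 250 counts in every library, and knockdown SEs were 0.24 to 0.39 on the log2 scale.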
